A study of Homo sapiens with 12 samples.

Results

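Type I interferons act through a cell-surface receptor made of the chains IFNAR1 and IFNAR2, which carry the kinases TYK2 and JAK1 on their inner side. Once the kinases are active, STAT2 joins IRF9 within ISGF3, the complex that binds interferon-stimulated response elements and turns on antiviral genes. IRF3 and IRF7 are the factors that switch on the interferon genes themselves after viral nucleic acid is sensed, and IRF1 is a further transcription factor of interferon-responsive genes that is itself induced by interferon. These 9 genes, IFNAR1, IFNAR2, JAK1, TYK2, STAT2, IRF9, IRF1, IRF3 and IRF7, are described here as they were measured in A549 cells with and without GFI1. They were picked by gene name, with no threshold on measured values but with earlier results of these data known. They are 9 of the 58735 genes in the deposited table. All 9 passed the filter on low counts, which kept 17829 genes.

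A549 is an established human lung adenocarcinoma line that normally grows attached to plastic and hardly expresses GFI1, a zinc-finger transcriptional repressor of blood development. Control and GFI1-expressing cells were each grown attached on cell culture-treated plates or kept floating on ultra-low attachment plates, and the floating cells had been in suspension for 48 hours. The 4 groups, attached control, attached GFI1, floating control and floating GFI1, had 3 libraries each, and all of them were A549 cells in RPMI1640 medium with fetal bovine serum. GFI1 was brought in by a lentivirus with a human PGK promoter and GFP, and the transduced cells were sorted by GFP before RNA-Seq, so that the model is a forced level of GFI1 in a single cell line. The labels call the other cells only control. The study grew A549 cells with an empty vector as controls elsewhere in its work, but does not say so of these libraries. If the controls were not transduced and sorted alike, effects of the virus, GFP and sorting cannot be told apart from those of GFI1. Below, "with GFI1" means the GFI1 libraries against the control libraries. Nothing in the labels ties the replicates to separate cultures, so that p-values measure the spread between these libraries, which may be technical.

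The libraries held between 17014188 and 20748677 counts. GFI1 itself was at 0.471 ± 0.206 CPM (counts scaled to library size; mean ± SD, n = 3) in attached control and 290.1 ± 4.40 CPM in attached GFI1 libraries, and at 0.624 ± 0.125 and 560.1 ± 138 CPM in the floating groups, so the labels and the introduced gene matched in all 12 libraries. Its level in the floating GFI1 libraries ran from 430.2 to 706 CPM, and these 3 libraries also differed most among themselves. The epithelial markers EPCAM, CDH1, KRT7, KRT8, KRT18 and KRT19 were detected in every group, but their sum fell from 10386 to 10986 CPM in attached control to 4222 to 4339 CPM in attached GFI1 libraries, and from 6529 to 6938 CPM to 3039 to 3411 CPM in the floating groups. KRT8 and KRT18 held most of the fall, from 5769 to 1853 and from 2670 to 662 CPM in the attached means. CDH1 fell from 120 to 6.45 CPM there, KRT7 fell less, from 2077 to 1772 CPM, and KRT19 rose from 1.11 to 1.97 CPM. Each of these went the same way in the floating groups. EPCAM was at 2.68 CPM or less in every library. Of the blood markers, the pan-leukocyte gene PTPRC was at 0.0567 CPM or less, and the sum over PTPRC, CD3E, CD14 and HBB, nearly all of it CD14, stayed between 4.17 and 13.8 CPM. The endothelial sum over PECAM1, VWF and CDH5 was 0.109 to 0.602 CPM in control and 3.55 to 5.52 CPM in GFI1 libraries. CDH5 alone was at 3.24 CPM in the attached and 4.03 CPM in the floating GFI1 mean. The part of these marker changes in the results was not tested.

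GFI1-expressing cells held more mRNA of the transcription factor genes IRF1, IRF7, IRF9 and STAT2, and less of the receptor chain IFNAR2, than control cells did. The rises ran from 2.02-fold for STAT2 in floating cells to 8.61-fold for IRF1 in attached cells. The other 4 genes, IFNAR1, JAK1, TYK2 and IRF3, moved by 0.30 or less on the log2 scale in either comparison. With edgeR's quasi-likelihood test and a Benjamini-Hochberg adjusted p of 0.05 or less, 5 of the 9 genes were higher and 2 lower with GFI1 in attached cells, where 62.3% of all genes tested passed (29.5% higher and 32.8% lower). In floating cells 7 were higher and 1 was lower, where 60.4% of all genes passed (29.3% higher and 31.1% lower). An at least 2-fold rise past the test was found for 4 of the 9 genes in both comparisons, against 9.70% of all genes in attached and 8.44% in floating cells, and an at least 2-fold fall for 0 in attached and 1 in floating cells, against 8.51% and 8.82%. The median log2 fold change over the 9 genes was 0.13 in attached and 0.30 in floating cells, while the median of all genes tested was -0.01 and 0.01. The CPM ranges of the GFI1 and control libraries did not overlap for 8 of the 9 genes in attached cells and for 8 in floating cells, as for 67.0% and 64.4% of all genes.

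**Figure D1:**
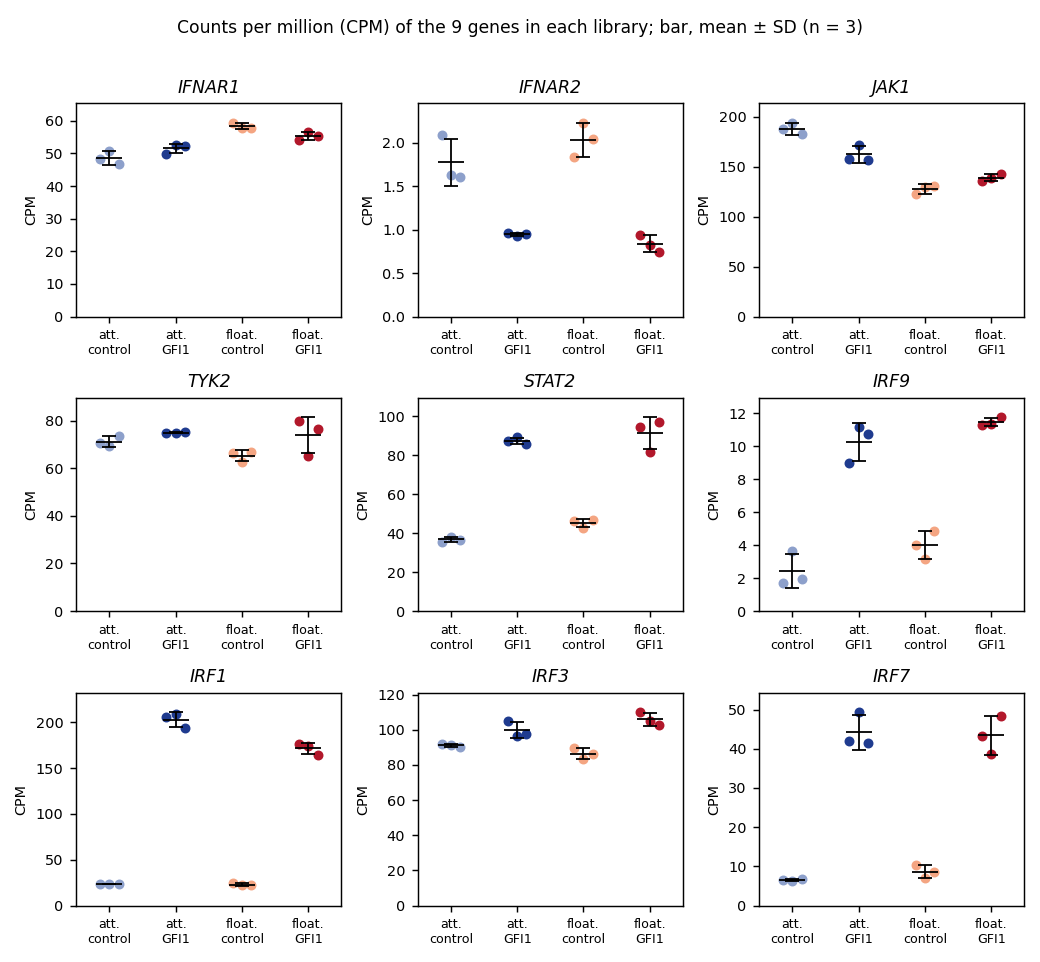
CPM of each of the 9 genes (vertical axes, each starting at 0) in the 12 libraries, by group (horizontal axis, att. for attached and float. for floating). Points are libraries and bars the mean ± SD (n = 3). IRF1, IRF7, IRF9 and STAT2 sit well above control in both GFI1 groups, IFNAR2 sits below it, and the other 4 panels differ less between groups, most for JAK1, between 122 and 194 CPM.

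The receptor chains went separate ways. IFNAR1 and IFNAR2 lie in a cluster on chromosome 21 (GRCh38, 33324387-33359864 and 33205282-33265675, plus strand) together with IL10RB and the interferon gamma receptor gene IFNGR2. IFNAR1, the chain that binds TYK2, was at 48.3, 50.8 and 46.6 CPM in attached control and 49.97, 52.5 and 52.3 CPM in attached GFI1 libraries. In suspension it was at 59.4, 57.9 and 57.8 CPM in control and 54.2, 56.6 and 55.5 CPM in GFI1 libraries. The 2 attached groups overlapped, and the 2 floating groups did not but lay within a few CPM of each other. The log2 fold change with GFI1 was 0.09 ± 0.05 (SE; 95% interval -0.01 to 0.19, adjusted p = 0.128) in attached and -0.07 ± 0.05 (-0.18 to 0.03, adjusted p = 0.192) in floating cells. With libraries scaled by total count alone, which moved the median of all genes to 0.14 in both comparisons, these values became 0.24 (adjusted p = 0.000183) and 0.05 (adjusted p = 0.336). The attached value also passed with upper quartile scaling (0.14, adjusted p = 0.0165), with a minimum of 10 counts in every library (0.11, adjusted p = 0.0405) and with only the groups compared in the fit (0.12, adjusted p = 0.0486).

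IFNAR2, the chain that binds JAK1 and has the higher affinity for interferon, was the least abundant of the 9 genes, with 15 to 37 counts per library. It was at 2.08, 1.63 and 1.61 CPM in attached control and 0.958, 0.923 and 0.951 CPM in attached GFI1 libraries. The floating control libraries held 1.84, 2.23 and 2.04 CPM and the floating GFI1 libraries 0.938, 0.827 and 0.746 CPM. Every GFI1 library was below every control library of the same culture. IFNAR2 was 1.87-fold lower with GFI1 in attached cells (a log2 change of -0.90 ± 0.25, adjusted p = 0.00335) and 2.43-fold lower in floating cells (-1.28 ± 0.26, adjusted p = 0.000129). In bulk RNA, fewer cells that express a gene and less RNA of it per cell cannot be told apart. In the GENCODE v44 reference, 49.1% of the bases of the canonical IFNAR2 transcript are also exon of the IFNAR2-IL10RB readthrough gene on the same strand, so reads there may have been left unassigned. The readthrough gene held 1 count at most in any library, and counting it together with IFNAR2 gave log2 fold changes of -0.89 and -1.28. A further 43.99% of these bases lie opposite the antisense gene IL10RB-DT, whose reads could not be told apart from those of IFNAR2 if the counting ignored strand. IL10RB-DT was itself lower with GFI1, at 0.915 ± 0.140 against 0.508 ± 0.299 CPM in attached (a log2 change of -0.88 ± 0.39, adjusted p = 0.0553) and 0.882 ± 0.169 against 0.423 ± 0.128 CPM in floating cells (-1.04 ± 0.41, adjusted p = 0.0325). Its part in the fall of IFNAR2 was not tested.

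The kinases changed little. JAK1, on chromosome 1 (64833223-65067754, minus strand), was at 188, 194 and 182 CPM in attached control and 158, 172 and 157 CPM in attached GFI1 libraries. In suspension the order turned, with 122, 129.8 and 131 CPM in control and 136, 139 and 143 CPM in GFI1 libraries. The ranges did not overlap in either culture. JAK1 was thus 1.16-fold lower with GFI1 in attached cells (a log2 change of -0.21 ± 0.04, adjusted p = 0.000209) and 1.09-fold higher in floating cells (0.12 ± 0.05, adjusted p = 0.0259). Scaled by total count alone, the attached value became -0.07 (adjusted p = 0.206). The floating call was lost without the low-count filter (adjusted p = 0.0566), without floating control replicate 1 (0.09, adjusted p = 0.147) and without floating GFI1 replicate 3 (0.10, adjusted p = 0.0794).

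TYK2, on chromosome 19 (10350533-10380608, minus strand), was at 70.4, 69.2 and 73.7 CPM in attached control and 74.9, 74.7 and 75.2 CPM in attached GFI1 libraries. The floating control libraries were at 66.6, 62.5 and 67.0 CPM and the floating GFI1 libraries at 79.9, 65.3 and 76.3 CPM, so that 1 floating GFI1 library fell inside the control range. The log2 fold change was 0.08 ± 0.06 (95% interval -0.04 to 0.19, adjusted p = 0.256) in attached and 0.18 ± 0.06 (adjusted p = 0.0108) in floating cells. Without floating control replicate 2 the floating value was 0.14 (adjusted p = 0.0667), and without floating GFI1 replicate 1 it was 0.13 (adjusted p = 0.0861). The attached value passed with libraries scaled by total count alone (0.22, adjusted p = 0.00225) and with only the groups compared in the fit (0.11, adjusted p = 0.0410).

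**Figure D2:**
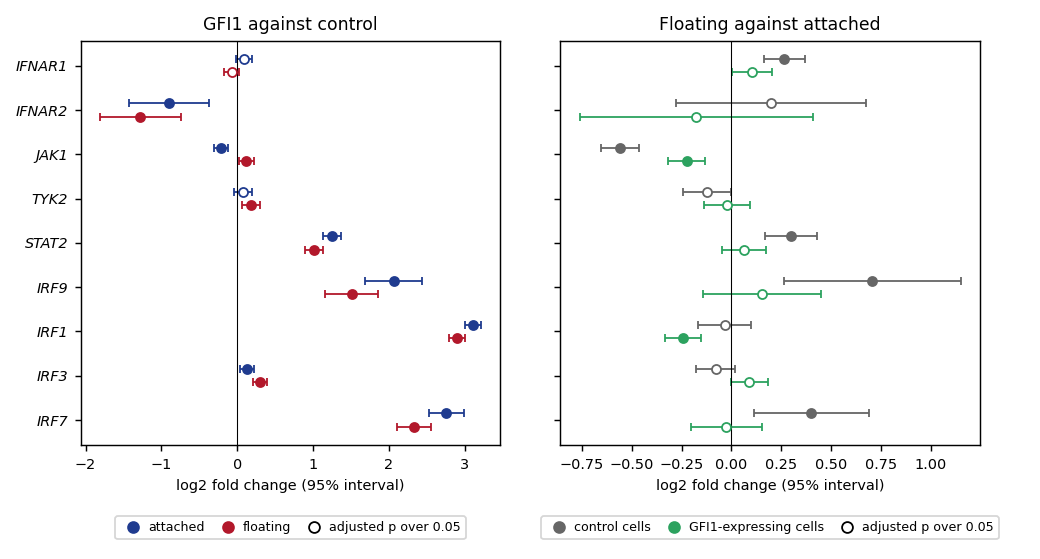
Log2 fold change (horizontal axes, with 95% intervals) of the 9 genes (vertical axis) with GFI1 in attached and floating cells (left) and with suspension in control and GFI1-expressing cells (right). Filled points have an adjusted p of 0.05 or less. IRF1, IRF7, IRF9 and STAT2 lie above 1 and IFNAR2 below -0.90 or at it on the left, and the largest fall on the right is that of JAK1 in control cells at -0.56.

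STAT2 and IRF9, both parts of ISGF3, were both higher with GFI1. STAT2, on chromosome 12 (56341597-56360203, minus strand), was at 35.5, 38.2 and 36.5 CPM in attached control and 87.2, 89.0 and 85.8 CPM in attached GFI1 libraries. In suspension it was at 46.2, 42.7 and 46.7 CPM in control and 94.5, 81.8 and 97.1 CPM in GFI1 libraries. The lowest GFI1 library of all, at 81.8 CPM, was far above the highest control library, at 46.7 CPM. STAT2 was 2.38-fold higher with GFI1 in attached cells (a log2 change of 1.25 ± 0.06, adjusted p = 1.37e-15) and 2.02-fold higher in floating cells (1.01 ± 0.06, adjusted p = 7.08e-14).

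IRF9, the subunit that brings ISGF3 to its DNA element, is on chromosome 14 (24161234-24168043, plus strand) and was measured from few reads, between 29 and 241 counts per library. Attached control libraries held 1.73, 3.64 and 1.95 CPM and attached GFI1 libraries 8.96, 11.1 and 10.7 CPM. Floating control libraries held 4.03, 3.13 and 4.87 CPM and floating GFI1 libraries 11.3, 11.4 and 11.7 CPM. No GFI1 library overlapped with a control library, and the widest relative spread was within attached control, where replicate 2 was about as high as the floating control libraries. IRF9 was 4.17-fold higher with GFI1 in attached cells (a log2 change of 2.06 ± 0.18, adjusted p = 3.75e-10) and 2.84-fold higher in floating cells (1.51 ± 0.17, adjusted p = 2.21e-08). Its level is uncertain, because 93.1% of the bases of its canonical transcript are also exon of ENSG00000259529, a protein-coding locus on the same strand, and reads there may have been left unassigned or given to that locus. This locus rose too, by 0.98 ± 0.20 (adjusted p = 0.000155) in attached and 0.73 ± 0.21 (adjusted p = 0.00348) in floating cells on the log2 scale. Counted together, a choice made after the overlap was seen, the pair rose by 1.70 ± 0.14 and 1.30 ± 0.14.

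IRF1 showed the largest change of the 9 genes in both comparisons. It lies on chromosome 5 (132440440-132508719, minus strand). The attached control libraries were at 24.1, 23.2 and 23.5 CPM and the attached GFI1 libraries at 206, 209 and 194 CPM. In suspension the control libraries were at 24.7, 22.3 and 22.2 CPM and the GFI1 libraries at 176, 174 and 165 CPM. Control libraries of both cultures overlapped, and every GFI1 library was several times above them. IRF1 was 8.61-fold higher with GFI1 in attached cells (a log2 change of 3.11 ± 0.05, adjusted p = 1.21e-24) and 7.44-fold higher in floating cells (2.90 ± 0.05, adjusted p = 4.77e-24). By the size of the change it ranked 434 and 529 among the 17829 genes tested. Exons of the antisense gene IRF1-AS1, listed as C5orf56, lie opposite 16.3% of the bases of the canonical IRF1 transcript. Over all reference exons of IRF1 the overlap is 2805 bases. IRF1-AS1 went from 2.14 to 28.8 CPM in attached and from 2.17 to 23.5 CPM in floating cells (log2 fold changes 3.75 ± 0.12 and 3.43 ± 0.13). The strand setting of the counting was not given in the sources used here, so reads of this pair cannot be told apart where their exons overlap.

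IRF1 and IRF9 were also the 2 of the 6 genes with a promoter in the RefSeq table (250 bases before to 50 bases after the start, GRCh38.p14) that held a GAS letter pattern, the element bound by STAT dimers. IFNAR2, IRF3 and IRF7 were not among the promoters used. Both windows are shown because the pattern lies just upstream of the start in each, with the GAS letters in capitals. The IRF1 window is at chr5:132490879-132490908 on the minus strand and the IRF9 window at chr14:24161191-24161220 on the plus strand. The IRF1 window lies outside exons of the GENCODE v44 reference, upstream of the IRF1 start and within introns of longer IRF1 transcripts and of an overlapping locus on the plus strand. The IRF9 window lies upstream of IRF9 in that reference and within an untranslated exon of the overlapping locus ENSG00000259529. In the gene positions deposited with the counts, IRF9 starts earlier, at 24161053, so the window lies within the gene there. The capitals lie 124 to 116 bases before the IRF1 start and 63 to 55 bases before the IRF9 start.
IRF1: aacagcctgatTTCCCCGAAatgacggcac
IRF9: gaccacgtgatTTCTGGGAAaaggccctcc
The GAS pattern was searched as TTCNNNGAA, a palindrome that reads alike on both strands, and was present in 7.66% of the 35116 promoters (9.38% of their genes). The interferon-stimulated response element, searched as GAAANNGAAA on both strands, was present in 3.57% of all promoters and in 0 of the 9 promoters of these 6 genes. AAATCA, the core letters that GFI1 prefers, was searched on both strands and present in 13.2% of all promoters (15.6% of their genes), and among the 6 genes again in IRF1 and IRF9. In both it was read on the opposite strand and overlapped the GAS letters, since the bases just before and at the start of the GAS are tgatTT. The joint pattern TGATTTCNNNGAA was looked for only after the sequences were seen, and was present in 28 of the 35116 promoters (0.0797%). It was read off these 2 windows, so IRF1 and IRF9 are among the 28 by construction. The share is therefore no test of a shared site. These are letter matches, and no binding was measured in these libraries. The study mapped GFI1 binding separately, by ChIP-Seq in A549 cells with FLAG-tagged GFI1, and those data were not used here.

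The pair of factors that act on interferon genes differed in size. IRF3, which is made constitutively and is activated by phosphorylation, lies on chromosome 19 (49659569-49665875, minus strand). It was at 92.1, 91.3 and 90.3 CPM in attached control and 105, 96.4 and 97.6 CPM in attached GFI1 libraries, and at 89.6, 83.4 and 86.0 CPM in floating control and 110.1, 105 and 103 CPM in floating GFI1 libraries. The ranges did not overlap in either culture, but all 12 libraries lay within 83.4 to 110.1 CPM. IRF3 was 1.09-fold higher with GFI1 in attached (log2 fold change 0.13 ± 0.05, adjusted p = 0.0192) and 1.23-fold higher in floating cells (0.30 ± 0.05, adjusted p = 4.45e-06). The attached call was lost without the low-count filter (0.11, adjusted p = 0.119), without attached control replicate 3 (0.12, adjusted p = 0.0679) and without attached GFI1 replicate 1 (0.09, adjusted p = 0.120). Of the canonical IRF3 transcript, 14.2% of the bases lie opposite exons of BCL2L12. Reads there could not be told apart if the counting ignored strand. BCL2L12 went from 48.1 to 30.3 CPM with GFI1 in attached and from 37.2 to 20.8 CPM in floating cells. Its part in the values of IRF3 was not tested.

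IRF7, the interferon-inducible partner of IRF3, lies on chromosome 11 (612553-615983, minus strand). It was at 6.67, 6.25 and 6.77 CPM in attached control and 41.9, 49.4 and 41.4 CPM in attached GFI1 libraries. Floating control libraries were at 10.4, 6.98 and 8.61 CPM and floating GFI1 libraries at 43.4, 38.5 and 48.3 CPM. The GFI1 libraries of both cultures covered the same range, and the control libraries lay far below it. IRF7 was 6.75-fold higher with GFI1 in attached cells (a log2 change of 2.75 ± 0.11, adjusted p = 5.19e-17) and 5.02-fold higher in floating cells (2.33 ± 0.11, adjusted p = 8.10e-16).

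Because the changes were unequal, the order of the 9 genes by level per length (CPM per kb of the deposited gene length) differed between groups. In attached control cells the kinase JAK1 led with 29.8 ± 0.928 CPM per kb, followed by IRF3 at 24.0 ± 0.244 and, well below, TYK2 at 10.5 ± 0.348, IFNAR1 at 7.71 ± 0.333 and STAT2 at 6.01 ± 0.222. IRF1 was at 3.03 ± 0.0562, IRF7 at 2.50 ± 0.106, IRF9 at 0.643 ± 0.275 and IFNAR2 at 0.384 ± 0.0584 CPM per kb. In attached GFI1 cells IRF3 (26.3 ± 1.21), IRF1 (26.0 ± 1.06) and JAK1 (25.7 ± 1.32) were within their SDs of each other, and IRF7 (16.8 ± 1.71) and STAT2 (14.3 ± 0.268) stood above TYK2 (11.1 ± 0.0354) and IFNAR1 (8.19 ± 0.223). In floating GFI1 cells the order was the same, with IRF3 at 27.9 ± 0.984 CPM per kb, IRF1 at 22.0 ± 0.797 and JAK1 at 22.0 ± 0.562. IRF9 and IFNAR2 were the lowest in all 4 groups. With the longest reference transcript as length, 4 of the 9 ranks changed in attached GFI1 and 2 in each of the other groups.

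**Figure D3:**
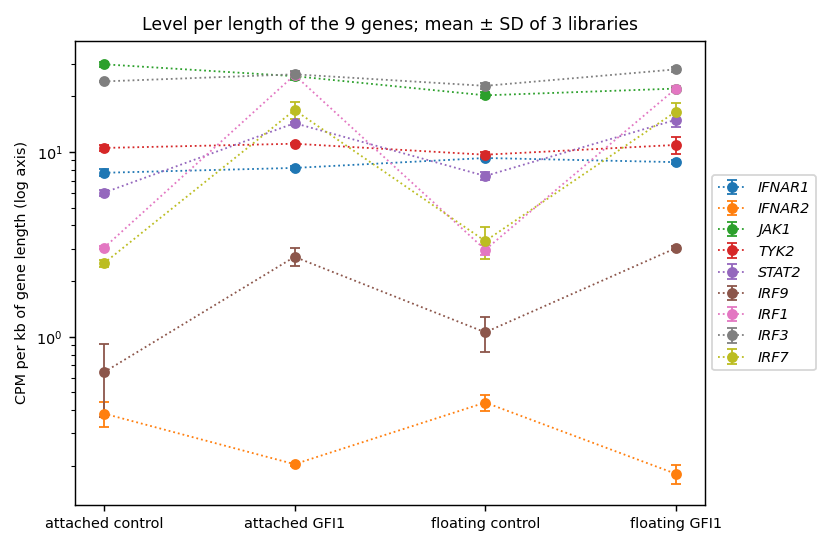
Level of the 9 genes per length (vertical axis, CPM per kb of deposited gene length, log axis) in the 4 groups (horizontal axis), as the mean ± SD of 3 libraries, with dotted lines joining the same gene. IRF1 moves from 3.03 in attached control to 26.0 in attached GFI1 cells, beside IRF3 and JAK1, while IFNAR2 falls from 0.384 to 0.205.

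Ratios within a library show the same shift between partners. The ratio of IRF1 to IRF2, a factor that competes with it for DNA, was 0.527 ± 0.0118 in attached control and 2.09 ± 0.207 in attached GFI1 cells per length, and 0.451 ± 0.0584 and 1.51 ± 0.0836 in floating cells. In CPM, IRF1 was above IRF2 in control cells too, at 23.6 against 17.9 attached and 23.0 against 20.6 floating. No other length was tried for the ratios. IRF7 was at 0.104 ± 0.00480 of the level of IRF3 in attached control and at 0.643 ± 0.0858 in attached GFI1 cells, and at 0.144 ± 0.0231 and 0.592 ± 0.0768 in suspension. The ratio of IRF9 to STAT2 was 0.106 ± 0.0413 and 0.189 ± 0.0207 in attached and 0.142 ± 0.0250 and 0.203 ± 0.0176 in floating control and GFI1 cells, with the doubt on IRF9 reads given above. For all 3 ratios, the GFI1 libraries lay above the control libraries of the same culture.

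**Figure D4:**
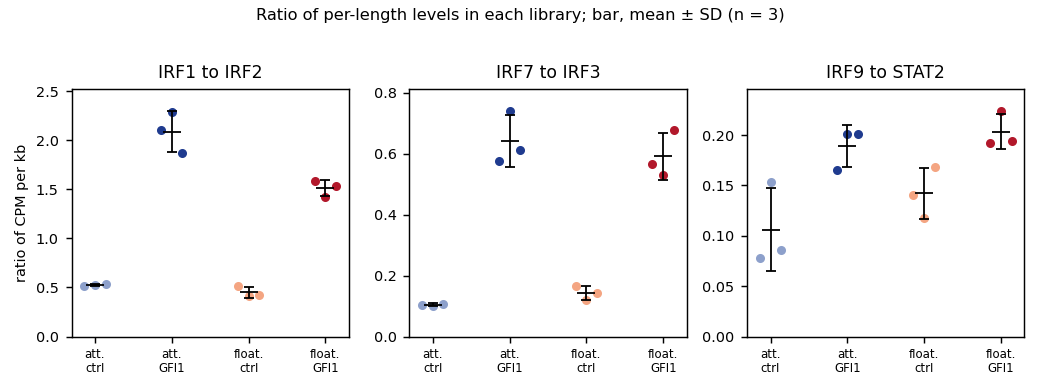
Ratio of the per-length levels of IRF1 to IRF2, IRF7 to IRF3, and IRF9 to STAT2 (vertical axes, each starting at 0) in each library, by group (horizontal axis), with the mean ± SD (n = 3). Per deposited gene length, IRF1 passes from below IRF2 to above it with GFI1 in both cultures. In CPM it is above IRF2 in control cells too.

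Suspension for 48 hours gave smaller changes than GFI1 for IRF1, IRF7, IRF9 and STAT2, whereas JAK1 and IFNAR1 had their largest values here. These comparisons share their libraries with the ones above. In control cells 4 of the 9 genes rose, 1 fell and 4 did not pass, where 40.1% of all genes passed (19.6% higher and 20.5% lower). JAK1 fell most, by 0.56 ± 0.05 on the log2 scale (1.47-fold, adjusted p = 3.24e-10). IFNAR1 rose by 0.27 ± 0.05 (adjusted p = 0.000108), STAT2 by 0.30 ± 0.06 (adjusted p = 0.000413), IRF7 by 0.40 ± 0.14 (adjusted p = 0.0247) and IRF9 by 0.71 ± 0.22 (adjusted p = 0.0103). The last of these rises is the least steady, since the ranges of IRF9 overlapped and the call was lost without attached control replicate 1 (0.51, adjusted p = 0.0790), attached control replicate 3 (0.56, adjusted p = 0.0670) or floating control replicate 3 (0.54, adjusted p = 0.0865), while without attached control replicate 2 the change was 1.12. The rise of IRF7 was lost without attached control replicate 1 (0.41, adjusted p = 0.0524), attached control replicate 2 (0.36, adjusted p = 0.0861), floating control replicate 1 (0.25, adjusted p = 0.209) or floating control replicate 3 (0.40, adjusted p = 0.0560). IRF1, at -0.03 ± 0.06 (95% interval -0.17 to 0.10, adjusted p = 0.721), and IRF3, at -0.08 ± 0.05 (-0.18 to 0.02, adjusted p = 0.187), did not pass. TYK2 was at -0.12 ± 0.06 (adjusted p = 0.102, and 0.0468 with only the groups compared in the fit) and IFNAR2 at 0.20 ± 0.23 (-0.28 to 0.68, adjusted p = 0.537).

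In GFI1-expressing cells 2 of the 9 genes passed with suspension, both lower, where 31.3% of all genes passed (16.3% lower). JAK1 fell by 0.22 ± 0.05 (1.17-fold, adjusted p = 0.000397) and IRF1 by 0.24 ± 0.04 (1.18-fold, adjusted p = 9.60e-05). The remaining 7 ran from -0.18 ± 0.28 for IFNAR2 to 0.15 ± 0.14 for IRF9. The level of GFI1 itself was 0.95 ± 0.10 higher on the log2 scale in floating than in attached GFI1 cells (adjusted p = 2.38e-08), and its part in this comparison was not tested. The ranges of the attached and floating libraries did not overlap for 6 of the 9 genes in control and 4 in GFI1-expressing cells, as for 49.9% and 41.4% of all genes.

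Whether suspension acted differently with and without GFI1 was tested as the difference between both suspension changes. JAK1 was the only one of the 9 genes that passed, with a difference of 0.33 ± 0.06 (adjusted p = 0.000838), where 10.8% of all genes passed (4.76% higher). Its fall with suspension was smaller in GFI1-expressing than in control cells. For IRF7 (-0.43 ± 0.16, adjusted p = 0.104), IRF9 (-0.55 ± 0.26, adjusted p = 0.200), STAT2 (-0.24 ± 0.08, adjusted p = 0.0685) and IRF1 (-0.21 ± 0.08, adjusted p = 0.0860) the estimate was negative without passing, which does not show that suspension acted alike. STAT2 passed with robust dispersion shrinkage (adjusted p = 0.0444) and without floating GFI1 replicate 3 (-0.29, adjusted p = 0.0190), IRF7 without the low-count filter (adjusted p = 0.0404), without floating control replicate 2 (-0.56, adjusted p = 0.0338) or floating GFI1 replicate 3 (-0.51, adjusted p = 0.0281), IRF9 without attached control replicate 2 (-0.97, adjusted p = 0.0130), and IRF3 without attached GFI1 replicate 1 (0.21, adjusted p = 0.0485, against 0.17 ± 0.06 and adjusted p = 0.102 with it).

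Around these 9 genes, 3 of the other 4 interferon receptor chains were also lower with GFI1 in each culture, and 0 were higher. Over all genes tested, the shares called higher and lower with GFI1 were 29.5% and 32.8% in attached and 29.3% and 31.1% in floating cells, and with suspension 19.6% and 20.5% in control cells. With suspension in GFI1-expressing cells 31.3% of all genes passed and 16.3% were lower. The counts over this list and those that follow are read against these shares. IFNGR1, the ligand-binding chain for interferon gamma, fell from 52.2 ± 1.27 to 16.9 ± 0.783 CPM in attached (log2 fold change -1.63 ± 0.06, adjusted p = 7.53e-18) and from 70.4 ± 1.41 to 16.3 ± 1.05 CPM in floating cells (-2.11 ± 0.06, adjusted p = 2.87e-20). IFNLR1, the specific chain for interferon lambda, fell by 1.61 ± 0.22 and 1.74 ± 0.21, and IFNGR2, next to IFNAR1 on chromosome 21, by 0.25 ± 0.07 and 0.31 ± 0.06. IL10RB, the shared chain of the lambda receptor, was at 0.56 ± 0.33 (adjusted p = 0.144) and 0.26 ± 0.29 (adjusted p = 0.448). With suspension, 2 of the 4 rose in control and 1 in GFI1-expressing cells.

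Interferon genes were hardly detected at this depth. Of 16 ligand genes of types I, II and III, 14 had 3 counts or fewer in every library, IFNB1 2 at most and IFNG 0 throughout, which allows up to 3 counts in a library. IFNE, an interferon of epithelia, was at 4.26 CPM in attached control and 5.41 CPM in attached GFI1 cells (log2 fold change 0.34 ± 0.17, adjusted p = 0.0813), and at 6.71 and 6.01 CPM in floating cells (-0.16 ± 0.16, adjusted p = 0.383). IFNA1 stayed under 1 CPM in every group mean, at 0.50 ± 0.40 (adjusted p = 0.291) with GFI1 in attached and at -1.16 ± 0.37 (adjusted p = 0.00863) in floating cells. Its reads may be shared with near-identical interferon alpha genes, so its values are uncertain. With suspension, the 2 tested ligand genes, IFNE and IFNA1, were both called higher in control cells, with log2 fold changes of 0.65 and 1.26. IFNA1 went from 0.379 CPM in attached to 0.916 CPM in floating control cells. In GFI1-expressing cells 0 of the 2 were called with suspension.

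The other JAK and STAT genes split by member rather than moving together. Of 7 tested, 2 rose and 3 fell with GFI1 in attached cells and 4 rose and 3 fell in floating cells. JAK2, the kinase of the interferon gamma receptor, rose from 13.3 ± 0.557 to 43.4 ± 1.77 CPM in attached (log2 fold change 1.70 ± 0.08, adjusted p = 2.90e-16) and from 13.7 ± 0.579 to 34.1 ± 3.09 CPM in floating cells (1.31 ± 0.08, adjusted p = 1.00e-13). JAK3 rose by 0.70 ± 0.15 and 0.44 ± 0.13. STAT6, the factor of interleukin 4 signalling, fell from 151 ± 9.39 to 45.6 ± 2.20 CPM in attached (-1.73 ± 0.05, adjusted p = 9.60e-20) and by 1.38 ± 0.05 in floating cells. STAT4 fell by 3.31 ± 0.20 and 2.44 ± 0.21 and STAT5A by 2.65 ± 0.22 and 2.88 ± 0.22, both from under 10 CPM. STAT3 and STAT5B were at -0.01 ± 0.05 (adjusted p = 0.901) and -0.07 ± 0.06 (adjusted p = 0.290) in attached cells and rose by 0.39 ± 0.05 and 0.30 ± 0.06 in floating cells. Suspension raised 2 and lowered 3 of the 7 in control, and raised 4 and lowered 1 in GFI1-expressing cells.

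Among the other IRF genes 2 of 4 could be tested, and IRF4 and IRF8 had at most 3 and 6 counts in any library. IRF2, the counterpart of IRF1, rose from 17.9 ± 0.695 to 39.0 ± 2.38 CPM in attached (log2 fold change 1.12 ± 0.07, adjusted p = 5.77e-13) and from 20.6 ± 1.35 to 45.4 ± 3.07 CPM in floating cells (1.14 ± 0.07, adjusted p = 2.63e-13). IRF5 was at -0.13 ± 0.11 (adjusted p = 0.337) in attached and rose by 0.28 ± 0.12 (adjusted p = 0.0374) in floating cells. With suspension, 1 of both rose in control and 1 in GFI1-expressing cells.

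Several brakes of the pathway were higher with GFI1. Of 16 negative regulators, 9 rose and 4 fell with GFI1 in attached cells, with a median log2 fold change of 0.27, and 11 rose and 4 fell in floating cells, with a median of 0.29. Among all genes 29.5% were higher and 32.8% lower in attached, and 29.3% and 31.1% in floating cells. The SOCS proteins and CISH bind and block activated receptors and kinases. SOCS1, at 1.76 CPM or less in every library, rose by 1.33 ± 0.40 (adjusted p = 0.00557) and 2.32 ± 0.43 (adjusted p = 4.36e-05), SOCS3 by 0.80 ± 0.07 and 0.88 ± 0.07, and CISH by 1.24 ± 0.15 and 1.34 ± 0.16. USP18, which removes ISG15 from proteins and holds back signalling at IFNAR2, rose by 0.83 ± 0.10 and 0.83 ± 0.11. SOCS2 was at -0.16 ± 0.11 (adjusted p = 0.229) in attached and rose by 1.48 ± 0.13 (adjusted p = 3.88e-10) in floating cells. The phosphatase genes PTPN6 and PTPN1 rose by 0.93 ± 0.07 and 0.23 ± 0.04 in attached cells, while PTPN2, a phosphatase that acts on JAK1, fell by 0.73 ± 0.07 in attached and 0.83 ± 0.07 in floating cells. Suspension raised 3 and lowered 5 of the 16 in control, and raised 1 and lowered 3 in GFI1-expressing cells.

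The kinases and adaptors that activate IRF3 and IRF7 moved in both directions. Of 11 tested, 4 rose and 3 fell in attached cells, with log2 fold changes from -0.55 to 1.03 and a median of 0.04, and 4 rose and 2 fell in floating cells, with values from -0.44 to 0.78 and a median of 0.00. TBK1, the kinase of IRF3, rose by 0.32 ± 0.05 and 0.25 ± 0.05, TRAF6 by 0.63 ± 0.08 and 0.63 ± 0.08, and IRAK4 by 0.46 ± 0.06 and 0.33 ± 0.06. The STING gene, listed as TMEM173, rose from 2.58 to 5.26 CPM (1.03 ± 0.17, adjusted p = 8.74e-06) and from 4.14 to 7.12 CPM (0.78 ± 0.15, adjusted p = 8.70e-05). MAVS, the adaptor of the RNA sensors, fell by 0.32 ± 0.04 and 0.30 ± 0.04 and IRAK1 by 0.55 ± 0.04 and 0.44 ± 0.04. Suspension raised 2 and lowered 3 of the 11 in control, and raised 2 and lowered 2 in GFI1-expressing cells.

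**Figure D5:**
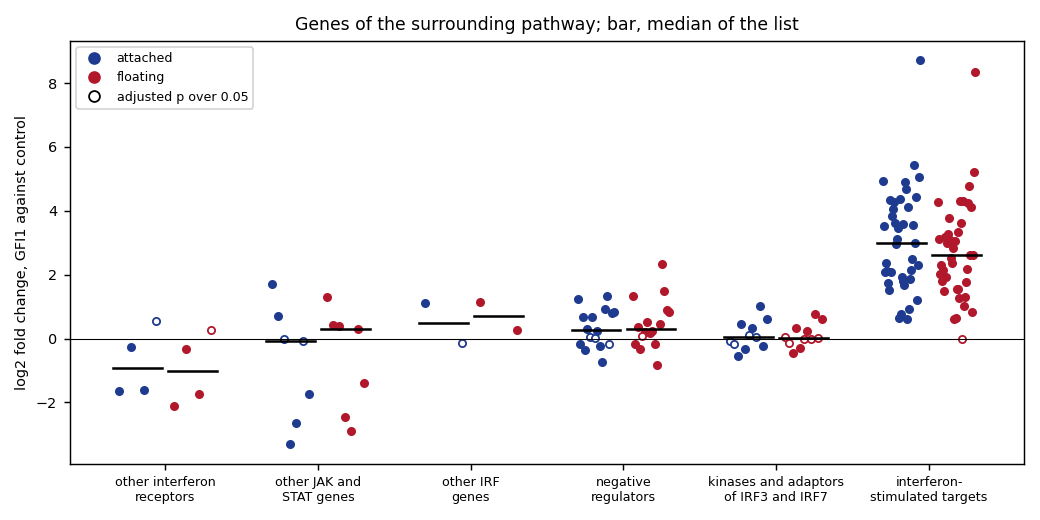
Log2 fold change with GFI1 (vertical axis) of each tested gene of 6 lists around the 9 genes (horizontal axis), in attached and floating cells. Filled points have an adjusted p of 0.05 or less and black bars are the list medians. The interferon-stimulated targets sit almost wholly above 0 with medians of 2.98 and 2.61, and the other interferon receptors mostly below it.

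Nearly all genes of a list of interferon-stimulated targets, which ISGF3 and the IRFs are known to switch on, rose with GFI1. The list was drawn up with earlier results of these data known, so its counts describe the listed genes and are not a test. Of the 40 on the list, 39 could be tested and all 39 rose in attached cells, against 29.5% of all genes, 35 of them at least 2-fold, with a median log2 fold change of 2.98. In floating cells 38 of 39 rose, against 29.3% of all genes, 35 at least 2-fold, with a median of 2.61, and OAS1 was at 0.00 ± 0.09 (adjusted p = 0.988). UBA7, the enzyme that activates ISG15, rose from 1.33 ± 0.172 to 44.8 ± 2.22 CPM in attached (5.07 ± 0.12) and from 1.18 ± 0.375 to 43.8 ± 3.27 CPM in floating cells (5.21 ± 0.13). The other 2 leading genes were hardly detected without GFI1. XAF1 had 0 or 1 count in each control library and 134 to 258 in each GFI1 library, and RTP4 had 0 or 1 and 23 to 46. With these 2 genes set to a lower bound against 3 counts per control library, the list medians were the same, at 2.98 and 2.61. EPSTI1, the gene not tested, had 8 counts at most. The response element letters GAAANNGAAA, absent from the promoters searched for IRF1, IRF9 and their 4 companions, were found in 25 of the 33 targets with a promoter in the table (75.8%), against 4.38% of all genes there.

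The guanylate-binding protein genes, which interferon also induces and which are not on that list, went both ways. Of 7, 4 could be tested, and 2 rose and 2 fell with GFI1 in each culture. GBP3 rose from 4.56 ± 0.782 to 31.6 ± 1.12 CPM in attached (log2 fold change 2.79 ± 0.10, adjusted p = 2.61e-18) and from 4.84 ± 0.468 to 27.8 ± 0.537 CPM in floating cells (2.52 ± 0.10, adjusted p = 2.68e-17). GBP4 had 0 to 2 counts in each control library and 57 to 98 in each GFI1 library. GBP2 fell from 5.06 ± 0.387 to 1.09 ± 0.189 CPM in attached (-2.22 ± 0.20, adjusted p = 5.41e-10) and from 7.35 ± 0.222 to 1.31 ± 0.414 CPM in floating cells (-2.46 ± 0.19, adjusted p = 1.96e-11). GBP1, with 10 to 19 counts in each control and 1 to 6 in each GFI1 library, was also called lower (adjusted p = 2.26e-05 and 0.00266), and GBP5, GBP6 and GBP7 had at most 5, 1 and 7 counts.

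Suspension moved the 39 listed targets in both directions. In control cells 14 of the 39 rose and 2 fell, where 19.6% of all genes rose and 20.5% fell, with the largest rise for IFITM1 (1.62 ± 0.16, adjusted p = 1.50e-08) and the largest fall for OAS3 (-0.68 ± 0.08, adjusted p = 1.72e-07). In GFI1-expressing cells 2 rose and 13 fell, where 31.3% of all genes passed and 16.3% fell, led by ISG20 (0.45 ± 0.06, adjusted p = 2.56e-06) at the upper and OAS3 (-0.58 ± 0.08, adjusted p = 1.54e-06), MX1 (-0.57 ± 0.11, adjusted p = 0.000201) and MX2 (-0.50 ± 0.14, adjusted p = 0.00568) at the lower end. In the test of the difference 13 of the 39 passed and all 13 were negative, where 6.01% of all genes passed in that direction. IFITM1 was at 2.34 ± 0.403 CPM in attached control, 48.0 ± 1.02 in attached GFI1, 7.19 ± 0.597 in floating control and 59.1 ± 8.39 CPM in floating GFI1 libraries.

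The genes whose profile over the 12 libraries lay nearest to those of the 5 genes changed at least 2-fold were looked up among 11886 protein-coding candidates, by the root mean square difference of log2 CPM after each gene was centred on its own mean. For STAT2 they were JADE2 (0.0791), JUP (0.0854) and CARD19 (0.0867), where the profile of STAT2 itself spread by 0.578 about its mean. For IRF1, with a spread of 1.501, they were PLPP3 (0.119), SFRP1 (0.165) and the interferon-stimulated gene DDX60L (0.176). The nearest to IRF7, with a spread of 1.28, was RUNX2 (0.159), followed by CYP26B1 (0.181) and CA11 (0.184). IRF9, with a spread of 0.978, had NTN3 (0.257), EXOC3L1 (0.259) and the antiviral membrane protein gene IFITM3 (0.261), and IFNAR2, with a spread of 0.523, had TRIM69 (0.114), NXPE3 (0.118) and RASGEF1A (0.125). These are descriptions over the 12 libraries, which differ mainly by GFI1 for all 5 genes.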

How the data were processed

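RNA-Seq of poly-A selected RNA from 12 A549 libraries in 4 groups of 3 was analysed, with groups and replicate numbers from the labels. The deposited values are raw counts per gene, which the authors made from NovaSeq reads with Hisat2, featureCounts and GRCh38 per the study's methods, while the submitters' processing notes list Bowtie2, HTSeq and hg38. Which pair was used, the annotation release and the strand setting were not given in the sources used here. Reads in shared exons may have been dropped, which would lower genes such as IRF9 and IFNAR2.

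The counts were fitted with edgeR 4.0.16 in R 4.3.3: filterByExpr (minimum count 10, minimum total 15; 17829 genes kept), TMM scaling (factors 0.939 to 0.971 in control and 1.04 to 1.06 in GFI1 libraries), 4 group means in a single quasi-likelihood model over all 12 libraries (biological coefficient of variation 4.86%), 5 contrasts, two-sided p-values and Benjamini-Hochberg adjustment over all genes tested, with 0.05 as the threshold. CPM values use TMM-scaled library sizes, and per-length levels divide by the deposited gene length. The fit was tested on simulated data. DESeq2 1.42.0 and other settings served as alternatives. Positions, exon overlaps and transcript lengths are from GENCODE v44 on GRCh38, and promoters from the RefSeq table of GRCh38.p14. The study compared its groups with DESeq2.

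All 9 genes are named in every contrast. Of the context lists any tested gene could be named in the GFI1 contrasts, and of the interferon-stimulated targets the 3 highest and 3 lowest called in each. The nearest profiles were the 3 closest for each gene past 2-fold. OAS1, EPSTI1, IFNB1, IFNG, IRF4, IRF8 the guanylate-binding proteins and the values of IFITM1 by group were added after their values were seen. The 9 genes and all lists were chosen with earlier results of these data known. Same-numbered replicates did not deviate together (correlations between -0.016 and 0.009), so numbers were not used as pairs. No library was left out of the main fit, and counting error limits the genes with few counts, IFNAR2 and IRF9. Some genes of the context and marker lists are not reported here and were left out of the counts over those lists.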

Additional observations from a re-analysis of the deposited data

Results flagged for a closer look

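The change of JAK1 with suspension differed between GFI1-expressing and control cells by 0.33 ± 0.06 on the log2 scale (adjusted p = 0.000838 in edgeR's test of the difference). That test passed for 10.8% of all genes, and by size the difference of JAK1 ranked 5132 among the 17829 genes tested. JAK1 was lower in all 3 floating than in all 3 attached libraries both with and without GFI1, from 188 ± 5.86 to 128 ± 4.65 CPM in control and from 162 ± 8.37 to 139 ± 3.55 CPM in GFI1-expressing cells. Leaving out each library in turn gave differences between 0.31 and 0.39.

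Among the interferon-stimulated targets, the same test gave the most negative differences for IFITM1 (-1.31 ± 0.18, adjusted p = 1.85e-05), IFI27 (-1.16 ± 0.34, adjusted p = 0.0283) and IFI44 (-0.85 ± 0.26, adjusted p = 0.0316). All 3 rose with suspension in control cells. IFI27 went from 1.05 ± 0.363 to 2.04 ± 0.660 CPM in control and from 21.3 ± 0.943 to 18.4 ± 4.48 CPM in GFI1-expressing cells, and IFI44 from 2.08 ± 0.405 to 3.29 ± 0.236 CPM and from 29.8 ± 1.70 to 26.1 ± 6.10 CPM. The floating GFI1 libraries spread widely on these genes, with IFI27 at 16.6, 15.1 and 23.5 CPM and IFI44 at 25.4, 20.5 and 32.6 CPM. Replicate 3 lay above every attached GFI1 library for both genes (22.0 and 31.7 CPM at most), and the other 2 lay below every one. Of the floating GFI1 libraries, replicate 3 also held the least GFI1 (430.2 CPM). The attached GFI1 libraries held less still, at 286 to 294 CPM, and a link to the level of GFI1 was not tested. Without floating GFI1 replicate 3 the differences were -1.44 for IFITM1, -1.38 (adjusted p = 0.000778) for IFI27 and -1.04 (adjusted p = 0.000546) for IFI44.

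Leaving out each of the 12 libraries in turn, a choice made after seeing the data, kept the call of IFITM1 (-1.44 to -1.18). The call of IFI27 (-1.38 to -0.87) was lost without attached control replicate 3 (adjusted p = 0.131), floating control replicate 1 (0.164) or floating GFI1 replicate 1 (0.0501). The call of IFI44 (-1.04 to -0.72) was lost for 7 of the 12, with adjusted p between 0.0532 and 0.120: attached control replicates 1 and 2, attached GFI1 replicate 2, each floating control replicate and floating GFI1 replicate 1.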

How the results depend on the processing

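Over 45 changes (9 genes in 5 contrasts), 765 values under other settings were computed, of which 731 kept both direction and side of the threshold, 16 lost the call, 14 gained it and 4 turned sign. Those 4 were all of changes without a call: IFNAR1 with GFI1 in floating cells under scaling by total count (0.0546), IRF7 with suspension in GFI1-expressing cells without attached GFI1 replicate 2 (0.0674) or floating GFI1 replicate 2 (0.0376), within a range of -0.113 to 0.0674, and TYK2 in the same contrast without floating GFI1 replicate 2 (0.0443), within -0.0904 to 0.0443. Scaling by total count moved the median of all genes to 0.14 in both GFI1 contrasts and the calls from 5258 higher and 5844 lower to 7001 and 4375 in attached, and from 5223 and 5547 to 6840 and 4308 in floating cells. The number of the 9 genes called in the test of the difference was 2 without the low-count filter and 2 with robust shrinkage, against 1, and 1 to 3 with a library left out. With a library left out it was 3 to 5 for suspension in control cells, against 5. A required 2-fold change as well left 4 and 5 genes for GFI1 in attached and floating cells and 0 in each of the other 3 contrasts. By level per length, the longest reference transcript changed 2 ranks in attached control, 4 in attached GFI1, 2 in floating control and 2 in floating GFI1 cells, and single libraries changed up to 2 ranks in each group but attached control. With a replicate block, 7, 8, 5, 2 and 1 of the 9 genes were called, as without it, and JAK1 differed by 0.34 (adjusted p = 0.000635), although the numbers did not pair the samples. Depth limits IFNAR2 and IRF9 most. The causes of the moved calls were not tested.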
